A study of Mus musculus with 9 samples.

Results

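The major urinary proteins (Mup) are a family of secreted proteins that the mouse makes mainly in the liver. Of the genes listed in the deposited expression table, 10 members were followed by their symbols, Mup1, Mup3, Mup7, Mup9, Mup11, Mup13, Mup17, Mup20, Mup21 and Mup22, among 55414 features with Ensembl identifiers. They belong to 49 features named Mup, of which 22 are genes and 27 are pseudogenes. The members are given by name, and the choice of this family was made with earlier results of these data known.

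Livers of NSG mice, an immunodeficient strain that lacks T, B and NK cells, were sequenced as 9 libraries. In 3 libraries the animals had received extracellular vesicles (EVs) shed by MDA-MB-231 cells, which come from a triple-negative human breast cancer (MDA-MB-231 EV). In 3 they had received EVs of MCF-10A, a human breast epithelial line that does not form tumours (MCF-10A EV), and in 3 phosphate-buffered saline (PBS). All were injected into the tail vein for 5 weeks, and every sample carries the genotype label WT. The vesicles are human and each kind comes from 1 cell line. The labels used here give no age and no sex, and they do not say that each sample came from a separate mouse, so a p-value here reflects the spread among the samples and nothing more. The title of the series places its question in miR-9-5p from cancer cells and the cholesterol balance of the host.

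Mups are lipocalins, small barrel-shaped proteins that carry hydrophobic molecules. Hepatocytes secrete them into blood, the kidney filters them, and in urine they hold and slowly release volatile pheromones, so that the blend of Mups marks an individual. In the mouse they are a textbook male-biased liver product: pulses of growth hormone acting through the receptor Ghr and the transcription factor Stat5b raise them, and the factor Zhx2 also acts on family genes. Mup20, also called darcin, is a male scent protein that attracts females. Mup1 has been studied as a circulating signal of metabolic state in mice.

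The genes stand side by side and are copies of each other, which decides how well reads can tell them apart. In the GENCODE annotation of the earlier build GRCm38, matched by gene identifier, all 10 lie on the minus strand of chromosome 4 between bases 60066469 and 62150863. Coding sequences of 7 members, Mup1, Mup7, Mup9, Mup11, Mup13, Mup17 and Mup22, were 98.16% to 99.63% identical to one another. These near copies, at least 95% identical to Mup1, are part of a block of 16 among the 22 family genes. Mup3, Mup20 and Mup21 are set apart, at 82.34% to 91.34% identity to the near copies, and Mup3 and Mup21 were 94.75% identical to each other. Mup13, at bases 61224307 to 61228286, was closest to Mup17, with 4 differences in the coding sequence.

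A stretch of the coding sequence shows how few letters separate Mup13, the only member called in any comparison, from its neighbours. Coding bases 13 to 42 of the near copies with the same coding length are given 5′ to 3′, and capitals mark bases that differ from Mup13.
Mup13: ttgctgctgtgtttgggactgaccctagtc
Mup17: Ctgctgctgtgtttgggactgaccctagtc
Mup9: Ctgctgctgtgtttgggactgaccctagtc
Mup1: CtgctgctgtgtGtgggactgaccctagtc
Mup7: CtgctgctgtgtttgggGctgaccctagtG
Mup9 and Mup17 were identical in this stretch and differed from Mup13 at 1 base, Mup1 at 2 bases and Mup7 at 3 bases.

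The start of the genes is shared as well. RefSeq promoters of build GRCm38.p6 were at hand for 6 members, Mup3, Mup7, Mup9, Mup11, Mup17 and Mup21, and the stretches below are shown because they hold the letters of a TATA box, the kind of element that positions the transcription start, in capitals.
Mup9, chr4:60421962-60421991, minus strand: ccagagagTATATAAggacaagcaaagggg
Mup3, chr4:62087307-62087336, minus strand: ccagagagTATATAAggacaagcaaaggag
Mup11 and Mup17 carried the same 30 bases as Mup9, and Mup21 the same as Mup3. Counted from the start site of the promoter table, the capitals began at -31 in Mup9, -25 in Mup17, -11 in Mup3, -8 in Mup21 and -2 in Mup11. The stretches of Mup3, Mup11, Mup17 and Mup21 lie inside the genes as GENCODE draws them, and that of Mup9 lies outside. For Mup3, Mup11, Mup17 and Mup21 the RefSeq and GENCODE starts therefore differ. The letters TATATAA, searched on both strands, were in 5 of the 6 member promoters and in 3.24% of all 32851 promoters of that length. The spaced palindrome TTCNNNGAA, the usual Stat5 motif, was in 0 of 6 and in 8.3% of all promoters; the same palindrome with 1 more base between its arms was in 2 of 6 (Mup7 and Mup11) and in 6.95% of all. A match or its absence describes these letters in this window only.

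To see how much of each transcript is its own, every window of 100 bases was looked up on the same strand in 141767 annotated transcripts. Mup3 had 97.1% of its windows in no other gene, Mup21 95.5% and Mup20 61.2%. Among the near copies the share was 40.6% for Mup17 and between 12.8% and 17.7% for Mup1, Mup7, Mup9, Mup11 and Mup13. Mup22 had 0 of 762 windows to itself. TPM (a level scaled to transcript length and to a fixed library sum) of a single near copy therefore rests largely on how the authors' software shared out reads, whereas TPM of Mup3, Mup21 and, in good part, Mup20 rests on reads of their own.

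**Figure D1:**
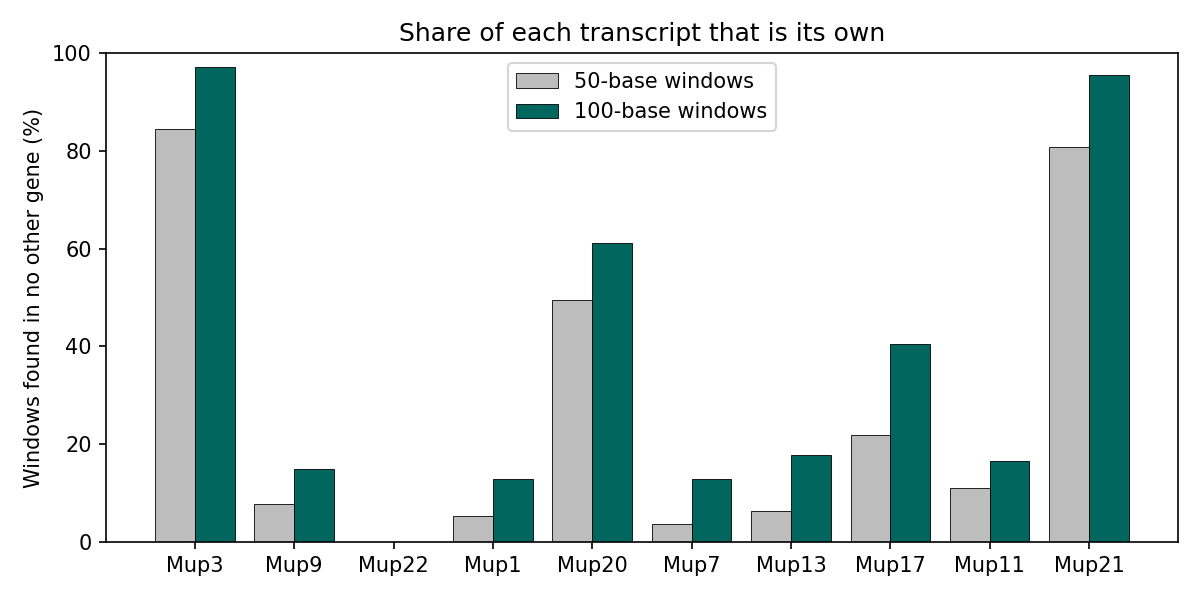
Share of the windows of each member's transcript that occur in no other annotated gene (y axis, percent), for windows of 50 bases (grey) and 100 bases (green), with members ordered by mean TPM. Mup3 and Mup21 stand near the top with 97.1% and 95.5% of 100-base windows, and Mup22 has none.

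Some facts of the libraries touch the values that follow. The liver label fits: albumin (Alb) was between 13114 and 65814 TPM in every library. MDA-MB-231 EV 3 and PBS 1 stood apart from their groups, with Xist, the RNA of the inactive X chromosome, at 273 and 320 TPM and the protease inhibitor Mug2 at 789 and 750 TPM, whereas the other 7 libraries had at most 74.8 TPM of Xist and at most 32.1 TPM of Mug2. MCF-10A EV 1 carried 28585 TPM of the acute phase protein Saa1, and no other library passed 1211 TPM. Mitochondrially encoded genes took 26.3% of the TPM in PBS 1, against 4.96% to 12.1% in the other 8 libraries. Genes of the Y chromosome (Ddx3y, Eif2s3y, Kdm5d and Uty) were at 0.13 TPM or less throughout, and Xist was at 7.11 TPM or more. This is the pattern of female tissue in every library, although the labels give no sex. The 3 MCF-10A EV columns differ from the others in form: loci assembled from the reads are all listed at 0, and total TPM is 934990 to 979350 in place of 1000000, so a step of processing that differed for these columns and the MCF-10A EV condition cannot be told apart.

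The family was expressed at very different levels from library to library, within each group as much as between groups. The 10 members summed to 389, 4458 and 30.8 TPM in MDA-MB-231 EV libraries 1 to 3, to 97.3, 2103 and 1387 TPM in MCF-10A EV libraries 1 to 3, and to 349, 2592 and 1037 TPM in PBS libraries 1 to 3. Each group had 1 or 2 high libraries and at least 1 low one, and the highest and the lowest of all 9 were both MDA-MB-231 EV libraries. The 3 highest sums, 4458, 2592 and 2103 TPM, were all in libraries numbered 2. The labels name nothing that a number shares. Group means were 1626 ± 2459 TPM for MDA-MB-231 EV, 1196 ± 1016 TPM for MCF-10A EV and 1326 ± 1149 TPM for PBS (SD, n = 3 each).

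On the log2(sum + 1) scale the difference was -1.36 ± 2.22 (SE) for MDA-MB-231 EV against PBS, -0.57 ± 1.62 for MCF-10A EV against PBS and -0.79 ± 2.48 for MDA-MB-231 EV versus MCF-10A EV. All 3 differences were smaller than their errors and the groups overlapped in each. Adding the other Mup genes and the pseudogenes raised the sums to 395, 6869 and 45.8 TPM in MDA-MB-231 EV, 115, 3075 and 2338 TPM in MCF-10A EV, and 399, 4163 and 1139 TPM in PBS, and exchanged the places of MDA-MB-231 EV 1 and PBS 1 in the order of the libraries. Summed TPM of 22 hepatocyte genes ran from 93147 in PBS 1 to 225570 in PBS 3. It was 118270 in MDA-MB-231 EV 3, where the members summed to 30.8 TPM. In MCF-10A EV 1 it was 196930, where the members summed to 97.3 TPM. The share of hepatocytes in these bulk samples was not measured, and its part in the Mup levels was not tested.

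**Figure D2:**
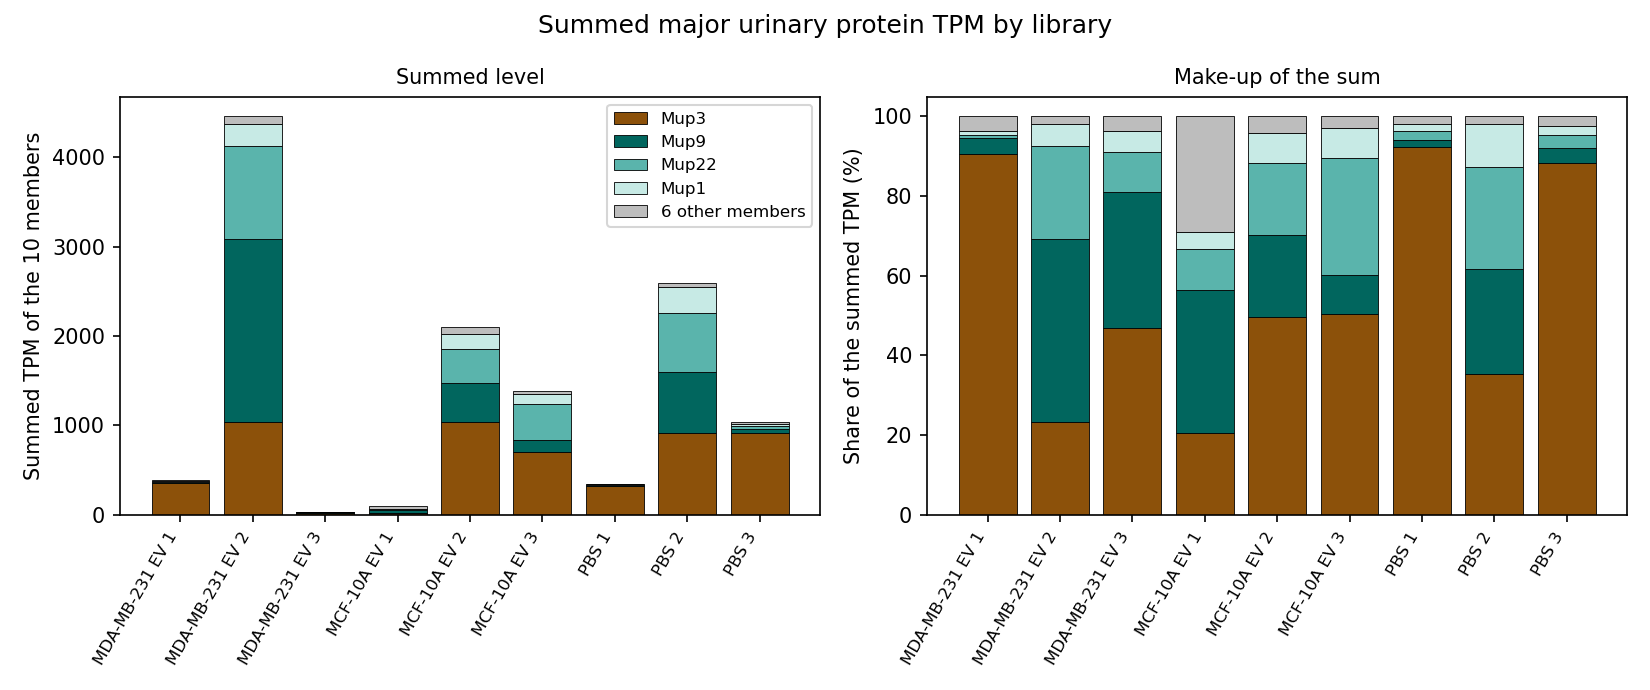
Summed TPM of the 10 members in each library (left, linear axis) and the share of each in that sum (right, percent); colours stand for Mup3, Mup9, Mup22, Mup1 and the 6 other members together. MDA-MB-231 EV 2 holds the highest sum, 4458 TPM, and MDA-MB-231 EV 3 the lowest, 30.8 TPM.

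What made up the sum also differed between libraries, and not in step with its height. Mup3 gave 90.7%, 23.3% and 46.8% of it in MDA-MB-231 EV libraries 1 to 3, 20.6%, 49.6% and 50.5% in MCF-10A EV libraries, and 92.4%, 35.2% and 88.2% in PBS libraries. MDA-MB-231 EV 1, PBS 1 and PBS 3 were thus nearly pure Mup3, while the library with the highest sum was mostly Mup9 and Mup22. Without Mup3 the other 9 members summed to 36.2, 3418 and 16.4 TPM in MDA-MB-231 EV, 77.3, 1061 and 686 TPM in MCF-10A EV, and 26.4, 1679 and 122 TPM in PBS. The difference of MCF-10A EV from PBS was then 1.11 ± 2.09 (SE) on the log2 scale, of the other sign than with Mup3 and still below its error.

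Mup3, the member with the highest mean and mostly its own reads, was at 353, 1039 and 14.4 TPM in MDA-MB-231 EV, 20.0, 1042 and 700.2 TPM in MCF-10A EV, and 322, 913 and 915 TPM in PBS. Its 2 lowest libraries were MDA-MB-231 EV 3 and MCF-10A EV 1, the 2 that also had the lowest sums, and the groups overlapped. The change, on the log2(TPM + 1) scale from the fit over all genes, was -1.86 ± 1.65 (SE) for MDA-MB-231 EV against PBS and -1.38 ± 1.65 for MCF-10A EV against PBS, with adjusted p = 1 in both (limma).

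The abundant near copies moved together across the libraries. Mup9 was at 15.5, 2050 and 10.6 TPM in MDA-MB-231 EV, 34.8, 434 and 133 TPM in MCF-10A EV, and 5.76, 687 and 40.9 TPM in PBS. Mup22 was at 2.95, 1043 and 3.10 TPM in MDA-MB-231 EV, 10.1, 382 and 409 TPM in MCF-10A EV, and 8.28, 659.9 and 33.8 TPM in PBS. Mup1 was at 3.97, 245 and 1.64 TPM in MDA-MB-231 EV, 4.13, 159 and 105 TPM in MCF-10A EV, and 5.36, 284 and 23.1 TPM in PBS. In all 3 genes MDA-MB-231 EV 2, MCF-10A EV 2 and 3 and PBS 2 were the 4 highest libraries, and every group overlapped the others. A single library set the mean of Mup9 in MDA-MB-231 EV (692 ± 1176 TPM, SD, n = 3), against 200.3 ± 208 TPM in MCF-10A EV and 245 ± 384 TPM in PBS.

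Among the scarce near copies the order of the libraries was similar but not the same. Mup7 was at 1.85, 36.0 and 0 TPM in MDA-MB-231 EV, 0.28, 12.3 and 4.01 TPM in MCF-10A EV, and 0.22, 17.8 and 6.40 TPM in PBS. Mup17 was listed at 0 in MDA-MB-231 EV 1 and 3 and at 18.6 TPM in MDA-MB-231 EV 2, at 0.60, 6.89 and 3.38 TPM in MCF-10A EV, and at 0, 8.69 and 0.49 TPM in PBS. Mup11 was at 0.62, 11.8 and 0.36 TPM in MDA-MB-231 EV, 0.06, 3.42 and 2.33 TPM in MCF-10A EV, and 0.99, 6.07 and 0.22 TPM in PBS. Library 2 of each group was the highest of its group in all 3 genes, PBS 3 stood above MCF-10A EV 3 in Mup7, and again the groups overlapped.

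Mup20, the gene of darcin, varied less. It was at 10.3, 13.0 and 0.65 TPM in MDA-MB-231 EV, 21.1, 17.5 and 9.63 TPM in MCF-10A EV, and 3.71, 13.3 and 14.0 TPM in PBS. MCF-10A EV 1, a low library for most near copies and for Mup3, held the highest Mup20, and MDA-MB-231 EV 3 the lowest. Mup21, close to Mup3 in sequence, was at 1.11, 0.86 and 0.10 TPM in MDA-MB-231 EV, 0.66, 0.78 and 0.72 TPM in MCF-10A EV, and 0.58, 1.08 and 3.26 TPM in PBS, near the lower limit of what was tested in every library.

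**Figure D3:**
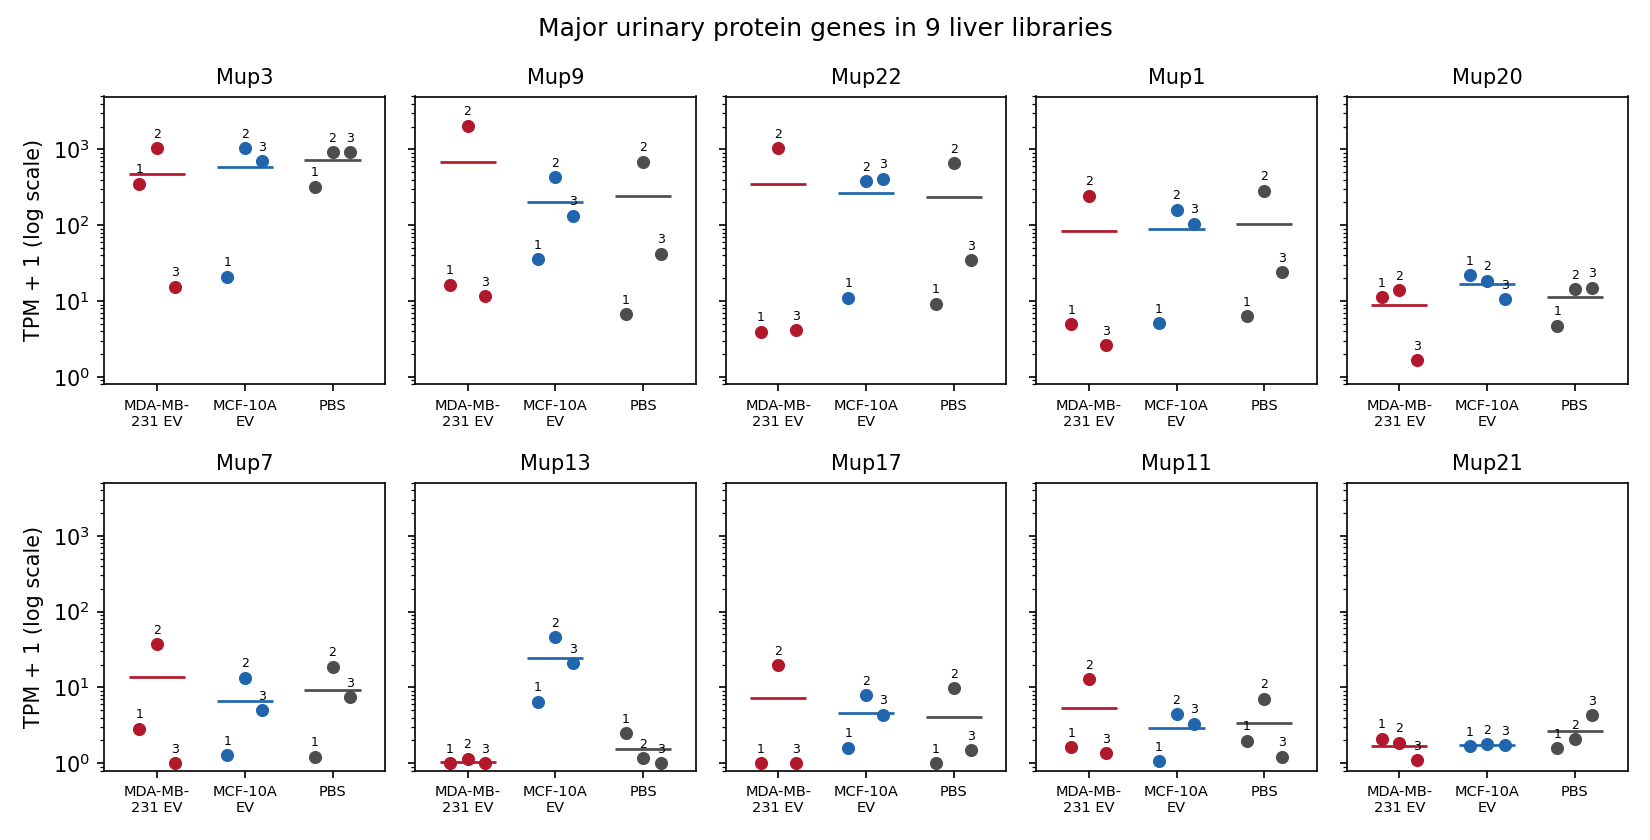
TPM + 1 of each member (y axis, log scale) in the 3 MDA-MB-231 EV, 3 MCF-10A EV and 3 PBS libraries, 1 point per library with its replicate number; horizontal lines are group means of TPM, drawn at that mean plus 1. Mup9, Mup22 and Mup1 are high in MDA-MB-231 EV 2, MCF-10A EV 2 and 3 and PBS 2, whereas Mup13 is above 5 TPM in the MCF-10A EV libraries and at most 1.5 TPM elsewhere.

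Mup13 was the member that did not follow the rest. It was listed at 0, 0.14 and 0 TPM in MDA-MB-231 EV libraries 1 to 3, against 5.50, 45.0 and 19.8 TPM in MCF-10A EV libraries 1 to 3. In PBS it was at 1.5, 0.17 and 0 TPM. All 3 MCF-10A EV libraries were above all 6 others, and this includes MCF-10A EV 1, where the other near copies were low. MDA-MB-231 EV 2, the library with the most Mup9, Mup22, Mup7, Mup11 and Mup17, had almost no Mup13.

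Between MDA-MB-231 EV and MCF-10A EV, Mup13 differed by -4.14 ± 0.66 (SE) on the log2(TPM + 1) scale, with a 95% interval of -5.61 to -2.67, and limma's adjusted p was 0.041 over 12860 genes. Mup13 was thus called lower in MDA-MB-231 EV. For MCF-10A EV against PBS the change was 3.68 ± 0.66 (2.21 to 5.16) with adjusted p = 0.078, which missed the threshold although the groups did not overlap. For MDA-MB-231 EV against PBS it was -0.45 ± 0.66 (-1.93 to 1.02) with adjusted p = 1. The call between the EV groups is not firm: left-out libraries gave adjusted p between 0.0098 and 0.26, and it was lost without any one of PBS 2 (0.074), PBS 3 (0.078), MCF-10A EV 2 (0.20), MCF-10A EV 3 (0.26), MDA-MB-231 EV 1 (0.20), MDA-MB-231 EV 2 (0.13) or MDA-MB-231 EV 3 (0.081). All 10 members passed the filter of a mean of 1 TPM over the 9 libraries. Mup21, at a mean of 1.02 TPM, fell below it with PBS 3 left out. Mup13 passed it only through the MCF-10A EV libraries, and with no filter its adjusted p was 0.25. With the replicate number as a block it was 0.16. Mup13 shares most of its sequence with other copies, and how the authors' reads were assigned to it in columns that otherwise differ in form was not tested.

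Counted over the family, no member passed the threshold for MDA-MB-231 EV against PBS, where limma called 0% of all tested genes and 199 genes had an unadjusted p under 0.05, none of them a member. For MCF-10A EV against PBS 0 of 10 members were called, beside 0.194% of all genes, with 411 genes, Mup13 among them, at an unadjusted p under 0.05. For MDA-MB-231 EV versus MCF-10A EV 1 of 10 was called, beside 0.218% of all genes, and 492 genes had an unadjusted p under 0.05. That member was Mup13, which passed the filter on low values only through the MCF-10A EV libraries. With no filter its adjusted p was 0.25 (limma), so the count is no result about the family. Groups without overlap were found for 0 of 10 members against 6.03% of all genes in MDA-MB-231 EV against PBS, for 1 of 10 against 7.69% in MCF-10A EV against PBS, and for 1 of 10 against 6.53% in MDA-MB-231 EV versus MCF-10A EV; the member was Mup13 in both.

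The intervals of the other 9 members were wide. Every one included 0 in each comparison, and adjusted p was 1 throughout. Mup22 had the widest, -6.31 to 3.87 for MDA-MB-231 EV against PBS, and Mup21 the narrowest, -1.68 to 0.55. Such intervals leave room for large changes in either direction, so they do not show that the levels were alike. Mup20 differed between MDA-MB-231 EV and MCF-10A EV by -1.35 ± 0.79 (SE), with a 95% interval of -3.10 to 0.39.

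**Figure D4:**
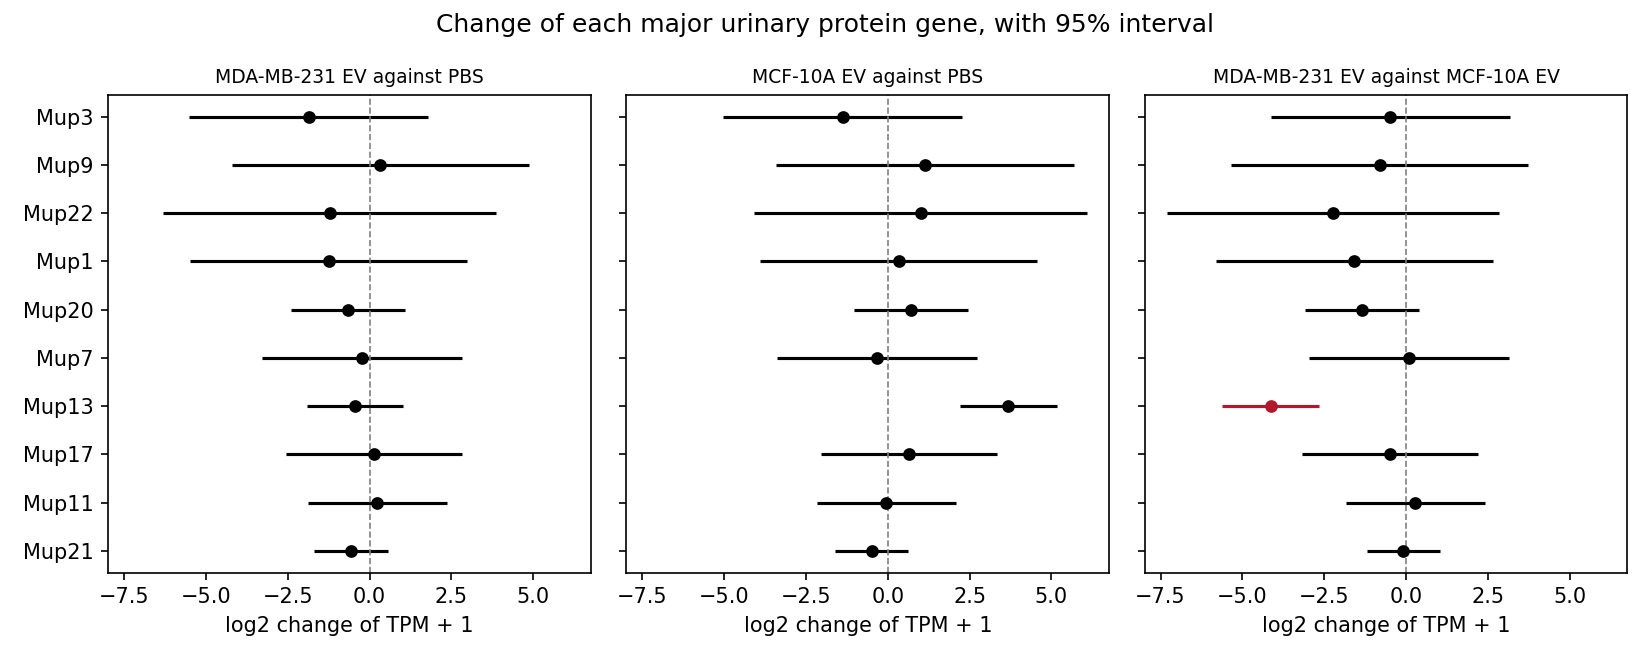
Change of each member on the log2(TPM + 1) scale (x axis) in the 3 comparisons, as points with 95% intervals from the limma fit over all genes; positive values mean higher in the group named first, and red marks an adjusted p under 0.05. Mup13 alone has intervals that leave out 0, at 3.68 for MCF-10A EV against PBS and -4.14 for MDA-MB-231 EV versus MCF-10A EV.

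By direction, 3 of 10 members were above 0 for MDA-MB-231 EV against PBS (median log2 change -0.51), 6 of 10 for MCF-10A EV against PBS (median 0.49) and 2 of 10 for MDA-MB-231 EV versus MCF-10A EV (median -0.65). Over all tested genes the shares above 0 were 69.7%, 56.8% and 65.0%, with medians of 0.21, 0.07 and 0.17. The comparisons share libraries, and the near copies share reads, so these counts are descriptions of the same few values. Without MDA-MB-231 EV 3 and PBS 1 the medians became -0.21, -0.37 and 0.21, which turns the sign of those for MCF-10A EV against PBS and for MDA-MB-231 EV versus MCF-10A EV. The median for MDA-MB-231 EV against PBS turned as well, to 0.39 without PBS 2 and to 0.21 without MDA-MB-231 EV 3. That for MCF-10A EV against PBS was -0.37 without PBS 1, -0.06 with MCF-10A EV 3 left out and -0.17 with MCF-10A EV 2 left out, and that for MDA-MB-231 EV versus MCF-10A EV was 0.21 without MDA-MB-231 EV 3.

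Across the 9 libraries each member's log2(TPM + 1) was set against the log2 sum of the other members, as a description of libraries that share their preparation and, for near copies, their reads. Pearson's r was 0.92 for Mup7, 0.91 for Mup1, 0.84 for Mup22, 0.81 for Mup17, 0.80 for Mup11 and 0.74 for Mup9. It was 0.68 for Mup3, 0.58 for Mup20, 0.49 for Mup21 and 0.18 for Mup13. Among pairs, Mup1 with Mup22 (0.99) and Mup9 with Mup17 (0.99) were most alike, and Mup13 reached at most 0.35 with any member.

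Of the Mup genes that are no members, the 5 with the highest means had the high libraries of Mup9, Mup22 and Mup1. Mup10 was at 0.34, 1029 and 1.16 TPM in MDA-MB-231 EV, 9.38, 358 and 355 TPM in MCF-10A EV, and 8.05, 633 and 30.02 TPM in PBS, close to Mup22 in the 4 high libraries. Mup14, Mup16, Mup2 and Mup19 had the same 4 high libraries. Mup15 and Mup8 did not: in MDA-MB-231 EV 2 they were at 1.03 and 0 TPM, and Mup15 was highest in MCF-10A EV 2, at 6.82 TPM, Mup8 in PBS 2, at 12.1 TPM. Of the 12 Mup genes outside the 10 members 8 were tested and 0 were called in any comparison, with medians of -1.09 for MDA-MB-231 EV against PBS, 0.35 for MCF-10A EV against PBS and -1.57 for MDA-MB-231 EV versus MCF-10A EV. The 2 with the smallest p in the last of these, Mup15 and Mup8, differed by -1.65 ± 0.75 and -1.55 ± 0.93 (SE) with adjusted p = 1 (limma).

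The pseudogenes whose values are given here were picked after those values were seen. Mup-ps14 was listed at 0, 0.21 and 0 TPM in MDA-MB-231 EV, 0, 14.2 and 3.61 TPM in MCF-10A EV, and 0.46, 0.11 and 0.25 TPM in PBS. Mup-ps4 was at 0, 0.67 and 0.08 TPM in MDA-MB-231 EV, 0, 11.5 and 0.96 TPM in MCF-10A EV, and 0.23, 0.85 and 0.48 TPM in PBS. Both were highest in MCF-10A EV 2, like Mup13, and so were Mup-ps1, Mup-ps2, Mup-ps10, Mup-ps12 and Mup-ps13. The other pseudogenes found above 0 in any library, Mup-ps18 and Mup-ps21, were at 0 there. Mup-ps14 and Mup-ps4 were listed at 0 in MCF-10A EV 1, unlike Mup13, and neither was called in any comparison.

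The pathway that raises Mup transcription in mice was examined through a list of 26 genes of the growth hormone axis and of factors known to act on Mup genes, of which 25 were tested. None was called in any of the 3 comparisons (limma), with 3, 0 and 2 at an unadjusted p under 0.05 for MDA-MB-231 EV against PBS, MCF-10A EV against PBS and MDA-MB-231 EV versus MCF-10A EV. The growth hormone receptor Ghr was at 252, 220 and 183 TPM in MDA-MB-231 EV, 88.7, 199 and 235 TPM in MCF-10A EV, and 195, 194 and 233 TPM in PBS. MCF-10A EV 1 and MDA-MB-231 EV 3 had the lowest Ghr, 88.7 and 183 TPM, and also the lowest Mup sums. PBS 1, low in the near copies, was at 195 TPM, and PBS 2, high in the near copies, at 194 TPM. MDA-MB-231 EV 1, low in the near copies as well, had the most Ghr, 252 TPM. Any part of Ghr in the Mup levels was not tested.

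Cish, a feedback inhibitor that Stat5 induces, was at 8.0, 9.10 and 9.63 TPM in MDA-MB-231 EV, 6.43, 4.74 and 3.53 TPM in MCF-10A EV, and 4.52, 0.54 and 3.30 TPM in PBS. Its groups did not overlap between MDA-MB-231 EV and PBS, with a change of 1.57 ± 0.49 (SE) and adjusted p = 1. The same absence of overlap was found for 6.03% of all tested genes in this comparison. For MCF-10A EV against PBS the smallest p belonged to Bcl6, a repressor that opposes Stat5, at -1.39 ± 0.78, and to Cish at 0.80 ± 0.49. In MDA-MB-231 EV versus MCF-10A EV it belonged to the hepatocyte factor Onecut1 at 1.48 ± 0.49 (adjusted p = 0.93) and to Socs2, another Stat5-induced inhibitor, at 2.11 ± 0.81 (adjusted p = 1). Of the 25, 22 were above 0 for MDA-MB-231 EV against PBS, 11 for MCF-10A EV against PBS and 22 for MDA-MB-231 EV versus MCF-10A EV. Among all tested genes 69.7%, 56.8% and 65.0% were above 0, in the same order.

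Other sex-biased liver genes were set beside the Mups. Of 14 tested male-biased genes 6 were above 0 for MDA-MB-231 EV against PBS (median -0.06), 4 for MCF-10A EV against PBS (median -0.39) and 9 for MDA-MB-231 EV versus MCF-10A EV (median 0.16), and 0 were called. Among all tested genes 69.7%, 56.8% and 65.0% were above 0, in the same order. Serpina1e, a protease inhibitor, was at 142, 385 and 255 TPM in MDA-MB-231 EV, 646, 1048 and 967 TPM in MCF-10A EV, and 254, 409 and 544 TPM in PBS. The change between the EV groups was -1.85 ± 0.49 (adjusted p = 0.53), and that for MCF-10A EV against PBS was 1.18 ± 0.49 (adjusted p = 1). Serpina1e was higher in all 3 MCF-10A EV libraries than in the other 6. Of its near copies, Serpina1c was lower in all 3 (1399, 1594 and 1544 TPM) than in the other 6. Serpina1a and Serpina1d overlapped in both comparisons. Serpina1b, at 7900, 16343 and 18256 TPM in MCF-10A EV, was above all 3 PBS libraries (2200, 4818 and 5961 TPM) but overlapped MDA-MB-231 EV. Groups did not overlap for 7.69% of all genes in MCF-10A EV against PBS and for 6.53% in MDA-MB-231 EV versus MCF-10A EV.

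Slc22a28, a transporter, was at 8.29, 0.12 and 3.38 TPM in MDA-MB-231 EV, 0, 0.07 and 0 TPM in MCF-10A EV, and 9.02, 2.88 and 4.75 TPM in PBS. It differed by -2.57 ± 0.70 for MCF-10A EV against PBS (adjusted p = 0.52) and by 1.80 ± 0.70 for MDA-MB-231 EV versus MCF-10A EV (adjusted p = 1). The smallest p of the list for MDA-MB-231 EV against PBS belonged to the complement protein C6 at 0.68 ± 0.46 and to Nudt7 at -0.72 ± 0.50, both with adjusted p = 1.

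Of 23 tested female-biased genes 18 were above 0 for MDA-MB-231 EV against PBS (median 0.36), 10 for MCF-10A EV against PBS (median -0.30) and 18 for MDA-MB-231 EV versus MCF-10A EV (median 0.77), and 0 were called. Among all tested genes 69.7%, 56.8% and 65.0% were above 0, in the same order. Acot3, an acyl-CoA thioesterase, differed by 2.11 ± 0.88 (SE) for MDA-MB-231 EV against PBS (adjusted p = 1) and by 2.65 ± 0.88 for MDA-MB-231 EV versus MCF-10A EV (adjusted p = 0.96). The cytochrome P450 genes Cyp2b9 and Cyp2b13 had the smallest p for MCF-10A EV against PBS, at -1.26 ± 0.68 and -1.81 ± 1.02. Cyp2b9 differed by 1.77 ± 0.68 between MDA-MB-231 EV and MCF-10A EV, with adjusted p = 1.

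Other lipocalins and plasma carriers of the liver were set beside the Mups, 13 of them tested and 0 called. Apom, which carries lipids on lipoproteins, was at 416, 359 and 56.9 TPM in MDA-MB-231 EV, 187, 51.6 and 34.4 TPM in MCF-10A EV, and 30.9, 115 and 76.9 TPM in PBS, a change of 1.64 ± 0.87 for MDA-MB-231 EV against PBS (adjusted p = 1). Ambp differed by 0.73 ± 0.62 in the same comparison. The acute phase lipocalin Orm2 differed by 2.69 ± 0.94 for MCF-10A EV against PBS (adjusted p = 0.93) and by -2.94 ± 0.94 for MDA-MB-231 EV versus MCF-10A EV (adjusted p = 0.87), and Orm1 by 1.62 ± 0.62 and -1.50 ± 0.62 (adjusted p = 1 in both). Orm2 was highest in MCF-10A EV 1, at 4217 TPM, the library that also led in Saa1.

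Marker sums of the cell types in liver also differed between libraries. Summed TPM of 22 hepatocyte genes was 214010, 220500 and 118270 in MDA-MB-231 EV, 196930, 204620 and 174550 in MCF-10A EV, and 93147, 175830 and 225570 in PBS, so MDA-MB-231 EV 3 and PBS 1 were lowest. The same 2 libraries had the highest sums of 9 stellate cell markers (734 and 706 TPM, against 162 to 479 TPM in the other 7), but Ecm1 alone gave 639.7 and 619.9 TPM of these, and the other 8 summed to 94.7 and 86.3 TPM there, against 49.6 to 261 TPM elsewhere. Their sums of 9 sinusoidal endothelial markers were 366 and 325 TPM, against 146 to 306 TPM; without Stab1, the marker with the highest mean, they were 192 and 204 TPM, against 106 to 283 TPM. MCF-10A EV 1 was highest in 7 erythroid markers (16025 TPM, against 781 to 4172 TPM) and in 10 Kupffer cell markers (2135 TPM, against 314 to 866 TPM), although Clec4f, the defining Kupffer marker, was at 0.61 TPM there. The 7 cholangiocyte markers summed to 24.4 to 130 TPM and the 10 adipose and pancreas markers to 68.6 to 836 TPM, with the highest value of the second in PBS 2. The part of these markers in the Mup levels was not tested.

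Outside the family, the 5 genes whose log2(TPM + 1) was most like the log2 Mup sum over the 9 libraries, of 12776 genes ranked, were Fkbp4, Fabp1, Hspb1, Ccl24 and Ly6a. Pearson's r was 0.94 for Fkbp4, a co-chaperone of steroid receptors, and 0.92 for Fabp1, the fatty acid carrier of hepatocytes. It was 0.90 for the small heat shock protein Hspb1 and 0.88 for both Ccl24, a chemokine, and Ly6a, a surface protein. Without MDA-MB-231 EV 3 and MCF-10A EV 1, the libraries farthest out in the Mup sum, r was 0.79, 0.75, 0.92, 0.64 and 0.65 in the same order. Hspb1 was at 6.92, 66.0 and 5.34 TPM in MDA-MB-231 EV, 12.1, 46.5 and 52.3 TPM in MCF-10A EV, and 12.5, 92.7 and 27.1 TPM in PBS, highest in the same 4 libraries as Mup9, Mup22 and Mup1.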

How the data were processed

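RNA-seq libraries of 9 liver samples were made with the TruSeq kit from total RNA, per the labels. The deposited values are TPM, computed by the authors; HISAT2, StringTie, RSEM and the build GRCm39 are named in the submitters' processing notes, without versions or order. Read depth cannot be had from TPM and is unknown, so values carry no counting interval. The assignment of reads shared by near copies and any use of strand are details not given in the sources used here.

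Deposited TPM was used unscaled. Features with Ensembl identifiers and a mean of at least 1 TPM (12860 in all, the 10 members among them) were put on a log2(TPM + 1) scale and fitted by limma (3.58.1, under R 4.3.3) with group means over 9 libraries, a trended prior variance, two-sided tests and Benjamini-Hochberg adjustment per comparison; a gene was called at adjusted p under 0.05. The log2(TPM + 1) scale understates changes of low genes. The 6059 assembled loci were left out. Sums have no test. The fit was tested on simulated data, with changes of 2 and 4 (log2) given to 100 genes each. These were drawn from the less variable and more abundant genes. The fit recovered 70 and 100 of them, with 5 false calls. Scarce or more variable genes were not drawn, so their recovery was not measured.

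Coding identity, windows of 50 and 100 bases and positions come from GENCODE M21 (GRCm38), matched by gene identifier; promoters come from RefSeq (GRCm38.p6). Of each gene the transcript with a coding length nearest to the commonest, 540 bases, was used.

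The members and all gene lists were chosen with earlier results of these data known. Named beside the members are, per list and comparison, the 2 tested genes with the smallest p, and the 5 genes most like the summed TPM, except that some genes the rule names are left unreported; Ghr, Mup10 and the other Mup genes and pseudogenes were added after their values were seen. Alternatives were another pseudocount, no filter, only the groups compared, replicate number as a block, 2 rescalings, quantile normalization, array weights, other sums and each library left out. Deviations from the group means of same-numbered libraries correlated at 0.34, 0.11 and 0.44 between MDA-MB-231 EV libraries and those of MCF-10A EV. MDA-MB-231 EV 2 correlated at 0.12 with MCF-10A EV 1, as much as with its own number. In pairs with PBS the same-number correlations lay between -0.39 and 0.50. Over all group pairs the best match had the same number in 7 of 18 cases. The values therefore do not settle whether the numbers pair libraries, and the labels name nothing that a number shares. The main fit left the numbers out, and the block on them was run as an alternative.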

Additional observations from a re-analysis of the deposited data

Results flagged for a closer look

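The changes of Mup13 under the EVs of the 2 cell lines, each set against the same PBS libraries, differed from each other. Against PBS the change was -0.45 ± 0.66 (SE) for MDA-MB-231 EV and 3.68 ± 0.66 for MCF-10A EV on the log2(TPM + 1) scale, and the difference between them was -4.14 ± 0.66, with adjusted p = 0.041 in limma over 12860 genes (n = 3 libraries per group). This p is of limited weight: Mup13 passed the filter on low values only through the MCF-10A EV libraries, the adjusted p was 0.25 with no filter and 0.16 with the replicate number as a block, and 13 alternatives in all lost the call. Mup13 was below 0.15 TPM in 3 of 3 MDA-MB-231 EV libraries and at 5.50 TPM or more in 3 of 3 MCF-10A EV libraries. The 2 groups overlapped for each of the other 9 members, and the MCF-10A EV columns are those without assembled loci.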

How the results depend on the processing

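Over 565 values of single members under the alternatives, 492 kept their direction and their side of the threshold, 13 lost and 3 gained a call, all for Mup13, and 57 changed sign, none of them called. Members called for MDA-MB-231 EV versus MCF-10A EV fell to 0, against 1, with no filter (Mup13 adjusted p = 0.25), only the groups compared (0.10), rescaling without mitochondrially encoded genes (0.063), quantile normalization (0.12), and without MDA-MB-231 EV 3 and PBS 1 (0.095); it was 0 to 1 with single libraries left out. Members called for MCF-10A EV against PBS came to 1 with array weights and without MDA-MB-231 EV 3, MCF-10A EV 1 and PBS 1 (Mup13 adjusted p = 2.5e-05 and 0.0032), and to 0 to 1 with single libraries left out. These 2 sets of libraries and the sum over near copies were chosen after seeing the data. The cause of these shifts was not tested, except that no filter adjusts over 26014 genes.

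All genes called for MDA-MB-231 EV against PBS came to 28 without MDA-MB-231 EV 3 and PBS 1, to 39 without these and MCF-10A EV 1, and to 0 to 24 with single libraries left out, against 0. For MCF-10A EV against PBS, 25 became 40 with a pseudocount of 0.1, 12 with no filter, 66 with only the groups compared, 548 with array weights, 85 and 92 without those libraries, and 14 to 59. For MDA-MB-231 EV versus MCF-10A EV, 28 became 11 with no filter, 17 with only the groups compared, 46 with array weights, 189 without the 3 libraries, and 13 to 31. With the replicate number as a block, 15 genes and 0 members were called for MDA-MB-231 EV versus MCF-10A EV (Mup13 adjusted p = 0.16), and the block changed no other call of a member.

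Signs turned as follows (log2 changes). With a pseudocount of 0.1, Mup17 was at -0.49 for MDA-MB-231 EV against PBS and Mup7 at -0.49 for MDA-MB-231 EV versus MCF-10A EV. With quantile normalization, which lowers the median of all genes to 0.04, against 0.21, for MDA-MB-231 EV against PBS, Mup11 was at 0.18 for MCF-10A EV against PBS and Mup7 at -0.14 for MDA-MB-231 EV versus MCF-10A EV. With array weights, Mup11 and Mup20 were at 1.15 and -0.10 for MCF-10A EV against PBS, and Mup7 and Mup21 at -0.015 and 0.042 for MDA-MB-231 EV versus MCF-10A EV. Without MDA-MB-231 EV 3 and PBS 1, Mup1, Mup9 and Mup22 were at -0.91, -0.41 and -0.33 for MCF-10A EV against PBS, and Mup3, Mup9, Mup17 and Mup21 at 1.29, 0.53, 0.22 and 0.20 for MDA-MB-231 EV versus MCF-10A EV. Without MCF-10A EV 1 as well, Mup11 and Mup20 were at 0.39 and -0.064 for MCF-10A EV against PBS, and Mup21 at 0.18 for MDA-MB-231 EV versus MCF-10A EV. With single libraries left out, the ranges that crossed 0 for MDA-MB-231 EV against PBS were -3.28 to 0.26 (Mup1), -1.71 to 0.89 (Mup7), -2.07 to 2.12 (Mup9), -0.80 to 0.97 (Mup11), -1.28 to 1.14 (Mup17), -1.22 to 0.32 (Mup20) and -3.89 to 0.51 (Mup22). For MCF-10A EV against PBS they were -0.91 to 1.88 (Mup1), -2.41 to 0.40 (Mup3), -1.42 to 0.56 (Mup7), -0.41 to 2.92 (Mup9), -0.59 to 0.68 (Mup11) and -0.33 to 2.75 (Mup22). For MDA-MB-231 EV versus MCF-10A EV they were -2.26 to 1.29 (Mup3), -1.38 to 1.22 (Mup7), -3.21 to 0.53 (Mup9), -0.75 to 0.87 (Mup11), -1.93 to 0.22 (Mup17) and -0.27 to 0.20 (Mup21). The range of Mup21 leaves out the fit without PBS 3, where Mup21 did not pass the filter. The difference in summed TPM moved by less than the spread between libraries (SD 2.62, log2) under every alternative run, but its sign was not stable. With single libraries left out it was -3.14 to 0.43 for MDA-MB-231 EV against PBS, -1.41 to 0.80 for MCF-10A EV against PBS and -2.57 to 1.00 for MDA-MB-231 EV versus MCF-10A EV. For MCF-10A EV against PBS it was 1.11 without Mup3, 1.10 over the near copies and 0.06 without MDA-MB-231 EV 3, MCF-10A EV 1 and PBS 1, and without MDA-MB-231 EV 3 and PBS 1 it was 1.00 for MDA-MB-231 EV versus MCF-10A EV. TPM carries no depth, so how far counting error limits the scarce members is unknown.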
